A study of Rattus norvegicus with 12 samples.

Results

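The genes described here belong to the angiotensin, mineralocorticoid and endothelin systems, which the heart uses to make and sense hormones that constrict vessels, retain salt and promote growth and scarring. They were taken by name from a table of read counts per gene: Agt, Ace, Agtr1a and Agtr2 of the angiotensin system, Nr3c2 of the mineralocorticoid system, and Edn1, Ece1, Ednra and Ednrb of the endothelin system. Of these 9 genes, 8 were found among the 30560 genes of the table and all 8 were deep enough to be tested; Agtr2, which encodes the type 2 angiotensin receptor, was not analysed here.

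The libraries came from the hearts of 12 male Wistar rats that were operated on at 7 weeks of age, with 4 rats and 1 library per rat in each group. Sham rats had the chest opened without a ligature and received vehicle, MI rats had the left anterior descending coronary artery tied and received vehicle, and MI + UA rats had the same ligation and received Urolithin A (UA), a gut-microbial metabolite of ellagic acid that promotes mitophagy, for 8 weeks. RNA was taken from 20 µm sections of formalin-fixed, paraffin-embedded heart tissue. A library therefore holds whatever mix of surviving muscle, scar and border the section crossed. The label of rat 66 gives UA, and it is counted so here, but the study's echocardiography table lists it with the MI rats given vehicle. A further MI + UA library that the protocol counts was not analysed here, and no batch is given for the libraries. The study's methods report that 1 outlying MI + UA library was left out by the authors. Between 6228706 and 19031695 reads per library fell on genes, and transcripts of the mitochondrial genome made up 50.2% to 58.6% of them.

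Angiotensinogen, encoded by Agt, is cut to angiotensin I, which angiotensin-converting enzyme (Ace) turns into angiotensin II, the ligand of the type 1 receptor (Agtr1a). Angiotensin II also drives the release of aldosterone, which acts through the mineralocorticoid receptor (Nr3c2), a steroid receptor that cortisol and corticosterone can occupy as well. Endothelin-1 (Edn1) is made as a precursor that endothelin-converting enzyme 1 (Ece1) cleaves, and it signals through the type A and type B receptors (Ednra and Ednrb). Blockers of each of these arms are established drugs in cardiovascular disease.

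The promoters of Edn1 and Agtr1a are shown because these genes had the largest differences between MI and Sham among those described. RefSeq's promoter table for the GRCr8 build held 6 of the 8 genes, with Agt and Nr3c2 not among them. The stretch of Edn1 is chr17:22666788-22666937 on the minus strand, from 250 to 101 bases before the annotated start, and that of Agtr1a is chr17:34435433-34435582 on the minus strand, from 150 to 1 bases before the start. Capitals mark the letters of a GATA factor motif (AGATAA, here on the opposite strand as TTATCT), the core of the hypoxia response element (ACGTG, here as CACGT) and a TATA box (TATAAA).
Edn1: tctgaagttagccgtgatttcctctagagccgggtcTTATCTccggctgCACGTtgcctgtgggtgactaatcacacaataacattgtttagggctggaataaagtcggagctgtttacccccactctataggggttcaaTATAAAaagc
Agtr1a: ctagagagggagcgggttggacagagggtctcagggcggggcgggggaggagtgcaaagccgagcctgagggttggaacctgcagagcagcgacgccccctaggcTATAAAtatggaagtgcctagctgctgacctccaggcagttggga
In Edn1 the GATA letters began 214, the hypoxia core 201 and the TATA box 110 bases before the start, and in Agtr1a the TATA box began 45 bases before it. Ace held the TATA box on the opposite strand (TTTATA) 42 bases before its start, and the 250 bases before the starts of Ednra, Ednrb and Ece1 held none of the motifs searched on either strand. The AP-1 site TGANTCA, also searched, was in none of the 6 promoters. Among 33469 rat promoters of the same length, 16.6% held the hypoxia core, 12.9% the TATA box, 10.3% the GATA motif and 6.34% the AP-1 motif, so a match describes letters only.

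In MI compared with Sham, the transcript of the hormone endothelin-1 and that of the type 1 angiotensin receptor rose and the transcript of the mineralocorticoid receptor fell. Edn1 was 4.16-fold and Agtr1a 2.69-fold higher, while Nr3c2 was lower by a log2 fold change of -0.34. These 3 of 8 genes passed edgeR's quasi-likelihood test at an adjusted p under 0.05, against 11.4% of the 18182 genes tested (5.82% higher, 5.53% lower). The groups did not overlap for 2 of the 8, Edn1 and Nr3c2, against 15.7% of all genes (8.12% higher, 7.56% lower). In MI + UA compared with Sham, Edn1 and Agtr1a were again higher, Ace was higher as well and Nr3c2 did not pass, which made 3 of 8 genes against 9.44% of all genes (5.16% higher). That count fell to 0 without Sham rat 12 or 32 and to 1 without Sham rat 38 or MI + UA rat 29 or 64. Over all genes, 1716 were called with every rat and 1155 to 1895 when 1 rat was left out. In MI + UA compared with MI, 0 of the 8 genes passed at an adjusted p under 0.05, as did 0% of all genes, and 2 of the 8 passed at an unadjusted p under 0.05 against 3.79% of all genes. DESeq2 also called 0 of the 8 in that comparison. The share of counted reads that landed on genes also moved with MI: it was 46.9% to 48.3% in the Sham, 43.3% to 44.8% in the MI and 42.9% to 47.2% in the MI + UA libraries, and its part in these differences was not tested. The median log2 fold change of the 8 genes was 0.29 in MI versus Sham, -0.08 in MI + UA versus MI and 0.16 in MI + UA versus Sham, beside 0.03, 0.00 and 0.02 over all genes. The first 2 comparisons share the MI rats and the last shares rats with both, so they are not independent of each other.

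**Figure D1:**
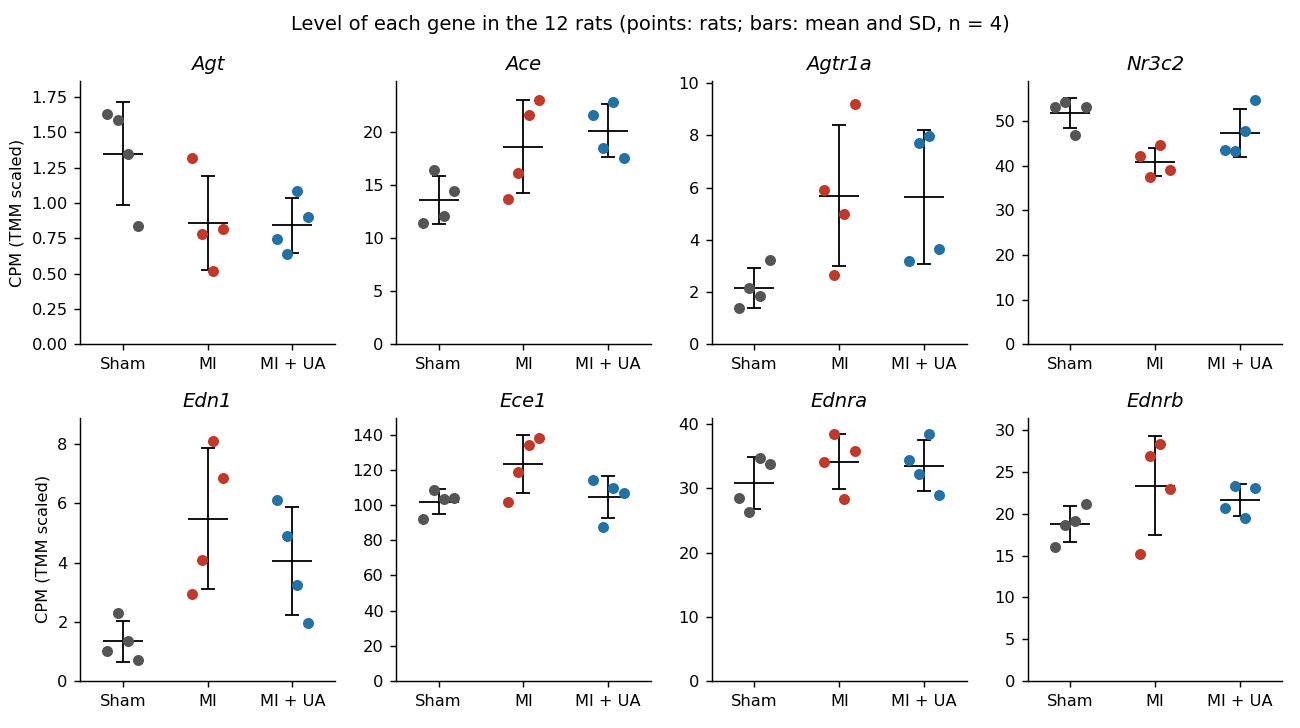
Level of each gene in each rat, in CPM after TMM scaling on linear axes from 0, with the 3 groups side by side; points are rats, horizontal lines the mean and bars the SD (n = 4). The MI rats lay wholly above the Sham rats for Edn1 and wholly below them for Nr3c2, and the MI + UA rats overlapped the MI rats for all 8 genes.

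Levels are given as CPM, a gene's reads relative to all reads on genes in the library, per 1000000 reads, after scaling by edgeR's TMM factors. CPM is not divided by transcript length, so it compares rats within a gene and not genes with each other. Values are listed for Sham rats 12, 17, 32 and 38, MI rats 36, 57, 61 and 89, and MI + UA rats 29, 58, 64 and 66, in this order. Because whole tissue was sequenced, fewer cells of a type and less RNA per cell cannot be told apart.

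Agt (ENSRNOG00000018445), the precursor of all angiotensin peptides, was near the limit of detection, with 119 reads over the 12 libraries and between 5 and 18 in each. Its level was 1.63, 1.59, 1.35 and 0.835 CPM in the Sham rats, 1.32, 0.784, 0.519 and 0.815 CPM in the MI rats and 0.743, 0.642, 1.08 and 0.900 CPM in the MI + UA rats. Sham rat 38 lay among the infarcted rats and MI rat 36 among the Sham rats, so the groups overlapped. The Sham mean was 1.35 ± 0.366 CPM, the MI mean 0.858 ± 0.333 CPM and the MI + UA mean 0.842 ± 0.192 CPM (SD, n = 4 each). The log2 fold change of -0.60 in MI versus Sham (standard error 0.39, 95% interval -1.42 to 0.22, edgeR adjusted p = 0.389) did not pass the test.

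Ace (ENSRNOG00000062101), which forms angiotensin II and also degrades bradykinin, measured 11.4, 16.5, 12.1 and 14.4 CPM in the Sham rats. It measured 13.7, 16.2, 21.6 and 23.1 CPM in the MI rats and 21.7, 18.5, 22.9 and 17.6 CPM in the MI + UA rats. All 4 MI + UA rats were above all 4 Sham rats, making Ace 1 of 8 genes without overlap in that comparison against 14.3% of all genes (7.83% higher), whereas MI rats 36 and 57 lay within the Sham range. The Sham mean was 13.6 ± 2.29 CPM, the MI mean 18.6 ± 4.41 CPM and the MI + UA mean 20.2 ± 2.51 CPM (SD, n = 4 each). The log2 fold change was 0.56 in MI + UA versus Sham (standard error 0.16, edgeR adjusted p = 0.0294) and 0.46 in MI versus Sham (standard error 0.16, edgeR adjusted p = 0.0760). The call in MI + UA versus Sham was lost in 5 of the 12 fits that each left out 1 rat, those without Sham rat 12, 32 or 38 or MI + UA rat 29 or 64 (largest edgeR adjusted p = 0.0984). The 4 fits without an MI rat removed no rat of the groups compared. Without MI rat 36 the difference between MI and Sham was 0.59 (edgeR adjusted p = 0.0155). Between MI + UA and MI the log2 difference was 0.11 (95% interval -0.21 to 0.42).

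Agtr1a (ENSRNOG00000018346), the receptor that carries the constricting and growth-promoting actions of angiotensin II, was covered by few reads, between 11 and 27 in the Sham libraries, 17 and 113 in the MI libraries and 56 and 65 in the MI + UA libraries. Its level was 1.38, 2.16, 1.85 and 3.22 CPM in the Sham rats, 5.92, 2.67, 4.98 and 9.21 CPM in the MI rats and 3.20, 7.71, 7.98 and 3.66 CPM in the MI + UA rats. In each infarcted group 1 rat, MI rat 57 and MI + UA rat 29, was below the highest Sham rat, and the MI + UA rats fell into a high and a low pair. The Sham mean was 2.15 ± 0.780 CPM, the MI mean 5.69 ± 2.71 CPM and the MI + UA mean 5.64 ± 2.56 CPM (SD, n = 4 each). Agtr1a rose by 1.43 on the log2 scale in MI versus Sham (standard error 0.38, edgeR adjusted p = 0.0158, higher in 15 of 16 pairs of rats) and by 1.29 in MI + UA versus Sham (standard error 0.38, edgeR adjusted p = 0.0364). The first of these calls was lost without Sham rat 12, Sham rat 32 or MI rat 89 (edgeR adjusted p = 0.0630, 0.0514 and 0.0787). The second was lost without Sham rat 12, 17 or 32 or MI + UA rat 58 or 64 (largest edgeR adjusted p = 0.117). The log2 difference between MI + UA and MI was -0.14, with a 95% interval from -0.81 to 0.53. Rats carry a second type 1 receptor gene of nearly the same coding sequence, Agtr1b, which had 0 or 1 read in each library; how reads matching both genes were counted is not given in the sources used here.

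Nr3c2 (ENSRNOG00000034007), the receptor for aldosterone, was lower in every MI rat than in every Sham rat. It measured 53.1, 54.3, 46.8 and 53.2 CPM in the Sham rats, 42.2, 37.5, 44.6 and 39.0 CPM in the MI rats and 43.5, 43.3, 47.8 and 54.6 CPM in the MI + UA rats. The gap between the lowest Sham rat, rat 32, and the highest MI rat, rat 61, was small beside the ranges of the groups. MI + UA rats 29 and 58 were within the MI range, rat 64 was within the Sham range and rat 66 was above all other rats. The Sham mean was 51.8 ± 3.40 CPM, the MI mean 40.8 ± 3.20 CPM and the MI + UA mean 47.3 ± 5.30 CPM (SD, n = 4 each). The fall in MI versus Sham, a log2 difference of -0.34 (standard error 0.095, edgeR adjusted p = 0.0223), was no longer called without Sham rat 17 or 38 or MI rat 57 or 89 (edgeR adjusted p between 0.0556 and 0.0694). It was not called either with rat 66 counted in MI (log2 fold change -0.24, edgeR adjusted p = 0.140). The log2 difference of 0.21 between MI + UA and MI (95% interval 0.02 to 0.41, higher in 14 of 16 pairs) had an unadjusted p = 0.0349 and an adjusted p = 1.00 in edgeR's quasi-likelihood test, and it was 0.032 with rat 66 counted in MI. Against Sham, the MI + UA rats differed by -0.13 (edgeR adjusted p = 0.467).

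Edn1 (ENSRNOG00000014361), the precursor of a potent constrictor of vessels, showed the largest difference among the 8 genes. It was read between 6 and 16 times in the Sham libraries, 26 and 84 times in the MI libraries and 24 and 107 times in the MI + UA libraries. In the Sham rats this gave 1.00, 2.31, 1.35 and 0.715 CPM, in the MI rats 2.92, 4.08, 8.10 and 6.84 CPM, and in the MI + UA rats 6.11, 4.88, 3.25 and 1.97 CPM. Every MI rat exceeded every Sham rat, and of the MI + UA rats only rat 66 lay within the Sham range. The Sham mean was 1.34 ± 0.694 CPM, the MI mean 5.49 ± 2.39 CPM and the MI + UA mean 4.05 ± 1.82 CPM (SD, n = 4 each). Edn1 rose by 2.06 on the log2 scale in MI versus Sham (standard error 0.42, 95% interval 1.18 to 2.93, edgeR adjusted p = 0.00262). The call held in each of the 12 fits that left out 1 rat, with a largest edgeR adjusted p of 0.0168. In MI + UA versus Sham it rose by 1.62 (standard error 0.43, edgeR adjusted p = 0.0193, higher in 15 of 16 pairs), a call lost without Sham rat 12, 32 or 38 or MI + UA rat 29 (edgeR adjusted p between 0.0507 and 0.0862). The log2 difference between MI + UA and MI was -0.44, with a 95% interval from -1.14 to 0.27, and lay between -0.78 and -0.17 when 1 rat was left out. With rat 66 counted in MI, this difference changed sign, to 0.058.

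Ece1 (ENSRNOG00000014241), the protease that releases the active endothelin peptide, was among the more deeply read of the 8 genes. Its level was 92.1, 109, 103 and 104 CPM in the Sham rats, 102, 119, 134 and 138 CPM in the MI rats and 114, 87.3, 109 and 107 CPM in the MI + UA rats. MI rats 57, 61 and 89 were above all Sham and MI + UA rats, and MI rat 36 was within both of the other groups. The Sham mean was 102 ± 7.02 CPM, the MI mean 123 ± 16.6 CPM and the MI + UA mean 104 ± 11.8 CPM (SD, n = 4 each). The log2 difference was 0.27 in MI versus Sham (standard error 0.10, edgeR adjusted p = 0.0954), which passed only in the fit without MI rat 36 (0.36, edgeR adjusted p = 0.0249). In MI + UA versus MI it was -0.24 (95% interval -0.45 to -0.02, higher in 3 of 16 pairs), with an unadjusted p = 0.0300 and an adjusted p = 1.00 in edgeR's quasi-likelihood test. Against Sham, the MI + UA rats differed by 0.04 (95% interval -0.18 to 0.25).

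Neither endothelin receptor passed the test in any of the 3 comparisons. Ednra (ENSRNOG00000012721), the receptor that mediates constriction in smooth muscle, ranged from 26.3 to 34.7 CPM in the Sham rats, from 28.3 to 38.4 CPM in the MI rats and from 28.9 to 38.4 CPM in the MI + UA rats. Its log2 difference was 0.15 in MI versus Sham (95% interval -0.10 to 0.39, edgeR adjusted p = 0.498) and -0.03 in MI + UA versus MI (95% interval -0.27 to 0.21). Ednrb (ENSRNOG00000010997), which in endothelium releases nitric oxide and clears endothelin, measured 16.1, 18.6, 19.2 and 21.2 CPM in the Sham rats, 15.1, 27.0, 28.3 and 23.0 CPM in the MI rats and 20.7, 23.4, 19.5 and 23.1 CPM in the MI + UA rats. For Ednrb, MI rats 57, 61 and 89 were above all Sham rats and MI rat 36 was the lowest of all rats. Its log2 difference was 0.30 in MI versus Sham (95% interval -0.02 to 0.62, edgeR adjusted p = 0.253), 0.47 without MI rat 36 (edgeR adjusted p = 0.0161), and -0.09 in MI + UA versus MI (95% interval -0.40 to 0.22).

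**Figure D2:**
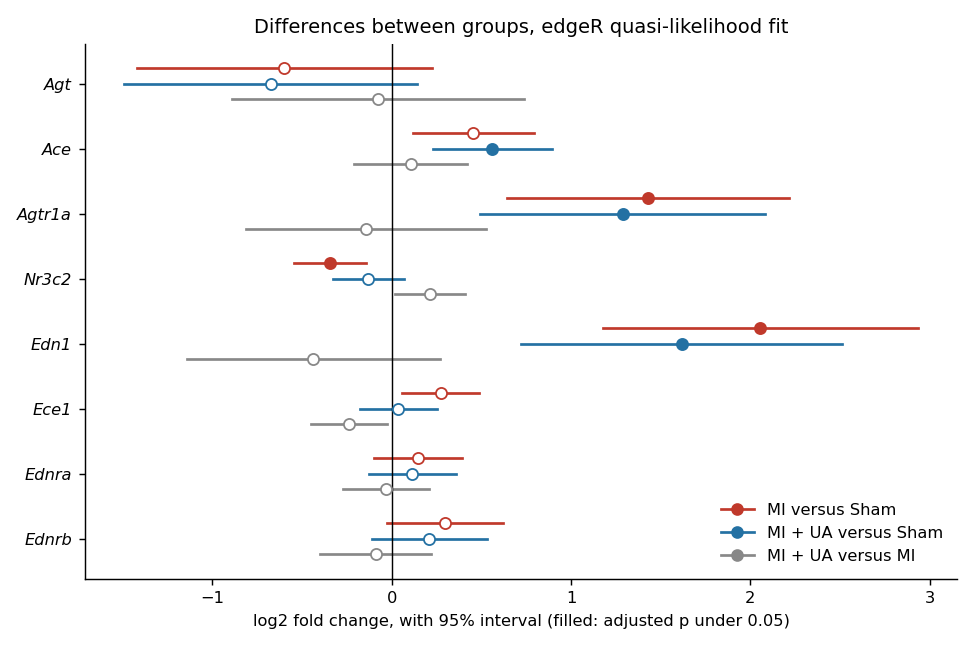
log2 fold change of each gene in the 3 comparisons from edgeR's quasi-likelihood fit, with 95% intervals; filled points have an adjusted p under 0.05 over all 18182 genes. Edn1 and Agtr1a lay to the right of 0 against Sham in both infarcted groups, at 2.06 and 1.43 in MI and 1.62 and 1.29 in MI + UA, and no point of the comparison between MI + UA and MI is filled.

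MI rat 36 was the lowest MI rat in Edn1, Ace, Ece1 and Ednrb and the highest in Agt. The same rat had the highest summed level of smooth muscle markers of all rats, 281 CPM against 155 to 214 CPM in the other MI rats, and the highest of the adipocyte markers, 3.29 CPM against at most 0.245 CPM in the other MI rats. Without it, 6 of the 8 genes were called in MI versus Sham rather than 3, and without MI rat 89 only Edn1 was. The part of these markers in the difference was not tested.

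Ratios of read counts within a library do not depend on how libraries are scaled, and they were taken for a hormone precursor with its protease and for the receptor pair. The log2 ratio of Edn1 to Ece1 reads averaged -6.30 ± 0.64 over the Sham rats, -4.58 ± 0.48 over the MI rats and -4.79 ± 0.76 over the MI + UA rats (SD, n = 4 each). All 4 MI rats had a higher ratio than all 4 Sham rats, with Edn1 reads making up 2.82% to 5.72% of the reads of the pair in MI and 0.741% to 2.14% in Sham. The difference of 1.72 had a two-sided exact permutation p = 0.0286, the smallest that 4 rats against 4 allow, and 0.171 after Benjamini-Hochberg adjustment over the 6 ratio tests. Between MI + UA and Sham the difference was 1.51 (exact permutation p = 0.0571, adjusted p = 0.171), and between MI + UA and MI it was -0.21 (exact permutation p = 0.657). The log2 ratio of Ednra to Ednrb averaged 0.71 ± 0.16 over the Sham rats, 0.58 ± 0.48 over the MI rats and 0.62 ± 0.29 over the MI + UA rats (SD, n = 4 each), with exact permutation p-values between 0.657 and 0.886.

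Around these genes, 75 further genes of the same pathways were listed by role, of which 60 were tested, 10 had under 10 reads in total and 5 were not analysed here. The lists were chosen with earlier results of these data known, so their counts are a description with no test. In MI versus Sham, 9 of the 60 rose and 1 fell, beside 5.82% of all genes higher and 5.53% lower, and 50 did not pass the test. Their median log2 fold change was 0.20, beside 0.03 over all genes tested. Between MI + UA and MI, 0 of the 60 passed edgeR's test after adjustment and 2 before it, beside 3.79% of all genes, and in MI + UA versus Sham 5 rose and none fell, beside 9.44% of all genes called.

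Among 15 tested partners of the angiotensin system, 1 fell with MI and none rose, beside 11.4% of all genes called in either direction. It was Mme, which encodes neprilysin, the protease that degrades natriuretic peptides and angiotensins. Mme measured 4.64, 3.18, 2.53 and 2.98 CPM in the Sham rats, 0.950, 1.88, 2.39 and 1.63 CPM in the MI rats and 2.00, 2.05, 1.22 and 2.19 CPM in the MI + UA rats, so that all infarcted rats were below all Sham rats. Its log2 fold change was -1.01 in MI versus Sham (standard error 0.31, edgeR adjusted p = 0.0367), a call lost without Sham rat 12, 17 or 38 or MI rat 36 or 89 (largest edgeR adjusted p = 0.139). Against Sham, the MI + UA rats differed by -0.81 in Mme (edgeR adjusted p = 0.0957). Cma1, the mast cell chymase that makes angiotensin II without Ace, differed by 1.21 in MI versus Sham (standard error 0.65, edgeR adjusted p = 0.275) on 85 reads in all. In MI + UA versus Sham, Cma1 differed by 1.91 (standard error 0.61, edgeR adjusted p = 0.0528). All infarcted rats were above all Sham rats in Cma1, at few reads each. Mas1, the receptor of angiotensin 1-7, differed by 0.36 (edgeR adjusted p = 0.687), and Agtrap, which promotes internalization of the type 1 receptor, by 0.32 (edgeR adjusted p = 0.530).

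None of the 9 tested partners of the mineralocorticoid receptor passed the test. Hsd11b2, which inactivates corticosterone and so leaves the receptor to aldosterone, had a Sham mean of 0.464 ± 0.310 CPM and an MI mean of 0.822 ± 0.263 CPM (SD, n = 4 each; edgeR adjusted p = 0.418). Hsd11b1, which works in the opposite direction, had a Sham mean of 14.8 ± 1.53 CPM and an MI mean of 16.5 ± 2.22 CPM (SD, n = 4 each; edgeR adjusted p = 0.476). The glucocorticoid receptor Nr3c1, the nearest relative of Nr3c2, differed by -0.13 on the log2 scale in MI versus Sham (standard error 0.08, edgeR adjusted p = 0.314). Sgk1, a kinase induced through both receptors, differed by 0.40 (standard error 0.15, edgeR adjusted p = 0.0946), and it passed without MI rat 36 (0.56, edgeR adjusted p = 0.00572) and with no filter on low counts (edgeR adjusted p = 0.0317). Cyp11b2, the aldosterone synthase, had 1 read over all libraries.

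The endothelin partners were sparse: 3 of 6 were tested and none passed. Ece2, a second endothelin-converting enzyme, measured 1.51, 1.44, 0.673 and 0.715 CPM in the Sham rats and 1.54, 3.76, 2.18 and 1.63 CPM in the MI rats, without overlap but by a narrow gap (log2 fold change 0.98, standard error 0.38, edgeR adjusted p = 0.113). The other endothelins, Edn2 and Edn3, had 5 and 0 reads over the 12 libraries, so of the endothelin genes Edn1 was the one detected at a level that could be compared.

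Of 23 genes that couple these receptors to the cell interior, 4 rose with MI and none fell, beside 5.82% of all genes higher. Arrb2, a beta-arrestin that switches off and internalizes such receptors, measured 7.03, 5.92, 8.25 and 4.89 CPM in the Sham rats, 10.7, 10.3, 12.5 and 10.7 CPM in the MI rats and 8.34, 8.86, 8.26 and 7.77 CPM in the MI + UA rats. Every MI rat was above every Sham and every MI + UA rat, and of the MI + UA rats only rat 66 lay within the Sham range. Arrb2 rose by 0.77 on the log2 scale in MI versus Sham (standard error 0.16, edgeR adjusted p = 0.00235), a call that held in each of the 12 fits that left out 1 rat. In MI + UA versus MI it differed by -0.42 (standard error 0.15), with an unadjusted p = 0.00945 and an adjusted p = 1.00 in edgeR's quasi-likelihood test, and it was among the 2.34% of all genes whose groups did not overlap in that comparison. The protein kinase C genes Prkcd and Prkca rose by 0.52 and 0.29 in MI versus Sham (edgeR adjusted p = 0.00599 and 0.0486), and Itpr1, the calcium channel that opens on inositol trisphosphate, by 0.30 (edgeR adjusted p = 0.0245). Prkcd kept its call in each leave-one-out fit. Itpr1 lost it without Sham rat 17, 32 or 38 or MI rat 61 (largest edgeR adjusted p = 0.0880), and Prkca without any of 9 rats, all but Sham rat 12, MI rat 61 and MI + UA rat 29 (largest edgeR adjusted p = 0.138). Prkca also lost it in a fit of only the groups compared, with no filter, with DESeq2's size factors and with TMM without mitochondrially encoded genes (largest edgeR adjusted p = 0.0797). Against Sham, Prkcd and Prkca were also higher in MI + UA, by 0.58 and 0.32 (edgeR adjusted p = 0.00307 and 0.0306), a call that Prkca lost without Sham rat 17, 32 or 38 or MI + UA rat 29, 58 or 64 (largest edgeR adjusted p = 0.0978). A further protein kinase C gene of the list, Prkce, went the other way without passing. Its log2 fold change against Sham was -0.37 in MI and -0.33 in MI + UA (edgeR adjusted p = 0.0752 and 0.130). Every infarcted rat was below every Sham rat in Prkce.

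Of 10 tested genes that these receptors are known to switch on in hypertrophy and fibrosis, 5 rose with MI and none fell, beside the same 5.82%. This list too was chosen with earlier results known, and the part of the receptors in the rise was not tested. Spp1, which encodes osteopontin, had a Sham mean of 2.69 ± 0.646 CPM, an MI mean of 28.3 ± 22.8 CPM and an MI + UA mean of 49.6 ± 34.7 CPM (SD, n = 4 each). Against Sham, its log2 fold change was 3.41 in MI and 4.13 in MI + UA (edgeR adjusted p = 0.00115 and 0.000243). When 1 rat was left out, these ranged from 2.70 to 3.67 and from 3.77 to 4.46, and both calls held. Ccn2, the connective tissue growth factor, rose by 1.38 in MI and 1.12 in MI + UA against Sham (edgeR adjusted p = 0.000344 and 0.00251). Nox4, an oxidase that makes hydrogen peroxide, rose by 0.84 (edgeR adjusted p = 0.0246), Tgfb1, a main driver of scar formation, by 0.41 (edgeR adjusted p = 0.0339), and Ccl2, which attracts monocytes, by 1.00 (edgeR adjusted p = 0.0488), each in MI versus Sham with overlapping groups. Nox4 lost its call without Sham rat 32 or 38 or MI rat 61 or 89 (largest edgeR adjusted p = 0.0920), and Tgfb1 without Sham rat 12, 17 or 32 or MI rat 61 or 89 (largest edgeR adjusted p = 0.115). Ccl2 lost it without any of 9 rats, all but MI rat 57 and MI + UA rats 29 and 64 (largest edgeR adjusted p = 0.168). The Ccl2 call was also lost under the first and the last 2 of the settings named for Prkca (largest edgeR adjusted p = 0.0585), and that of Nox4 with rat 66 counted in MI (edgeR adjusted p = 0.0514). Ccl2 also rose in MI + UA versus Sham, by 1.36 (edgeR adjusted p = 0.00801).

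**Figure D3:**
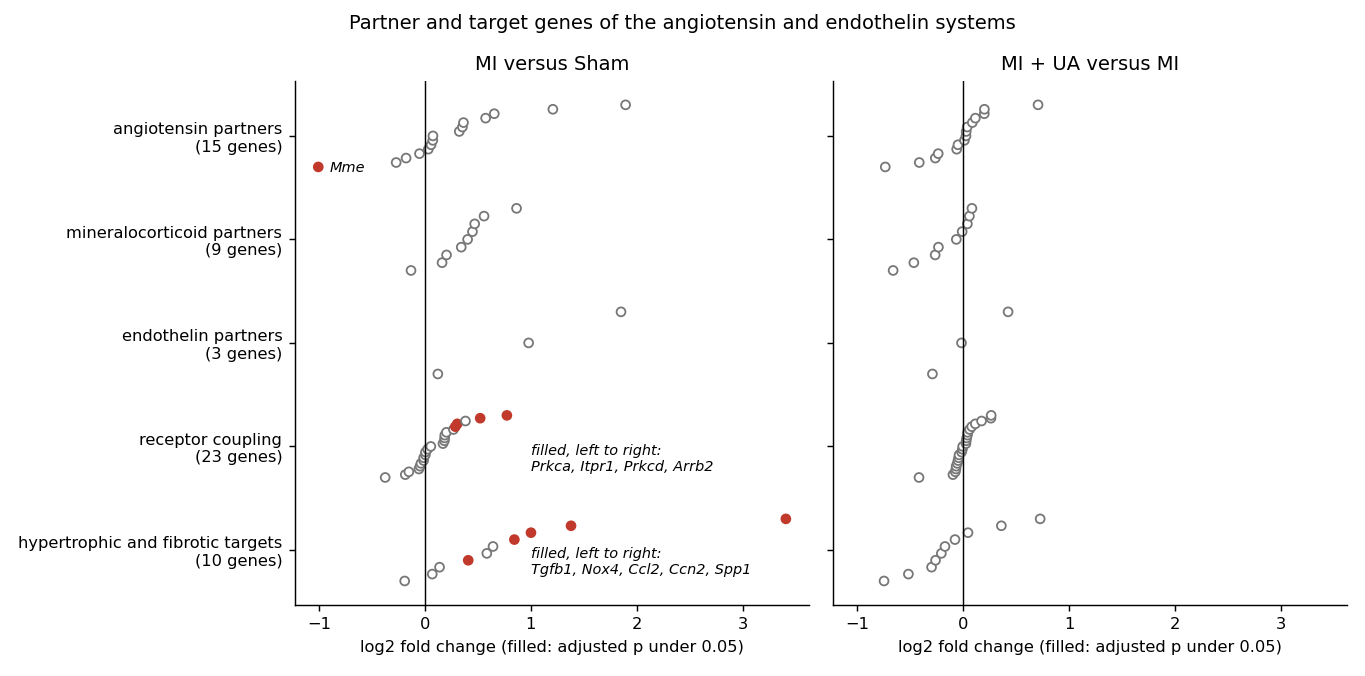
log2 fold change of the 60 tested pathway genes in 5 lists, for MI versus Sham (left) and MI + UA versus MI (right); each point is a gene and filled points have an adjusted p under 0.05 in edgeR's quasi-likelihood test. On the left 10 genes are filled, from Mme at -1.01 to Spp1 at 3.41, and on the right none is.

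Markers of several cell types moved with infarction, and they are given for the whole lists; over all genes tested, 5.82% were called higher and 5.53% lower. In MI versus Sham, 7 of 8 cardiomyocyte markers fell and 1, Myh7, rose, and their summed level was 17242 to 19830 CPM in the Sham rats, 12848 to 14959 CPM in the MI rats and 12895 to 16229 CPM in the MI + UA rats. Of 8 fibroblast markers 6 rose, and their sum was 1127 to 1439 CPM in Sham, 2188 to 3574 CPM in MI and 2205 to 3685 CPM in MI + UA. Of 8 macrophage markers 7 rose, and their sum was 86.7 to 101 CPM in Sham, 153 to 204 CPM in MI and 138 to 215 CPM in MI + UA. None of these 3 sums overlapped between Sham and either infarcted group. Of 7 tested endothelial markers 1 fell, and their sum was 631 to 709 CPM in Sham, 516 to 612 CPM in MI and 507 to 591 CPM in MI + UA. Endothelial cells are a main source of Edn1, Ece1 and Ednrb. The endothelial sum was lower in every infarcted rat than in every Sham rat, but its markers differed unevenly. Their log2 fold changes in MI versus Sham ran from -0.50 for Kdr, the 1 called, to -0.02 for Tek, with a median of -0.15. Of 6 smooth muscle markers 3 rose, with sums of 145 to 171 CPM in Sham, 155 to 281 CPM in MI and 154 to 206 CPM in MI + UA. The part of these shifts in the differences of the 8 genes was not tested.

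In the remaining lists, in MI versus Sham and beside the same shares of all genes, 1 of 6 pericyte markers, 1 of 6 Schwann cell markers and 1 of 4 atrial markers rose, 2 of 4 lymphatic endothelial markers rose and 1 fell, and 0 of 5 tested mast cell, 0 of 2 tested adipocyte and 0 of 4 mesothelial markers were called. The summed Schwann cell markers were 19.1 to 24.1 CPM in Sham, 26.8 to 36.5 CPM in MI and 26.2 to 67.3 CPM in MI + UA, and the atrial markers 22.6 to 27.7 CPM, 29.8 to 51.0 CPM and 32.9 to 38.2 CPM, so both lay above Sham in all infarcted rats. Within the atrial list, 3 log2 fold changes against Sham were above 0 and 1 was below it, the lowest being -1.54 in MI and -1.18 in MI + UA. The atrial genes thus did not move together. The study's methods state that atria were taken off at collection. The mast cell list shares Cma1 and Cpa3 with the angiotensin partners. Between MI + UA and MI, 0 markers of any list passed edgeR's test at an adjusted p under 0.05. The defining cardiomyocyte markers were present in every library of the labelled heart tissue.

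**Figure D4:**
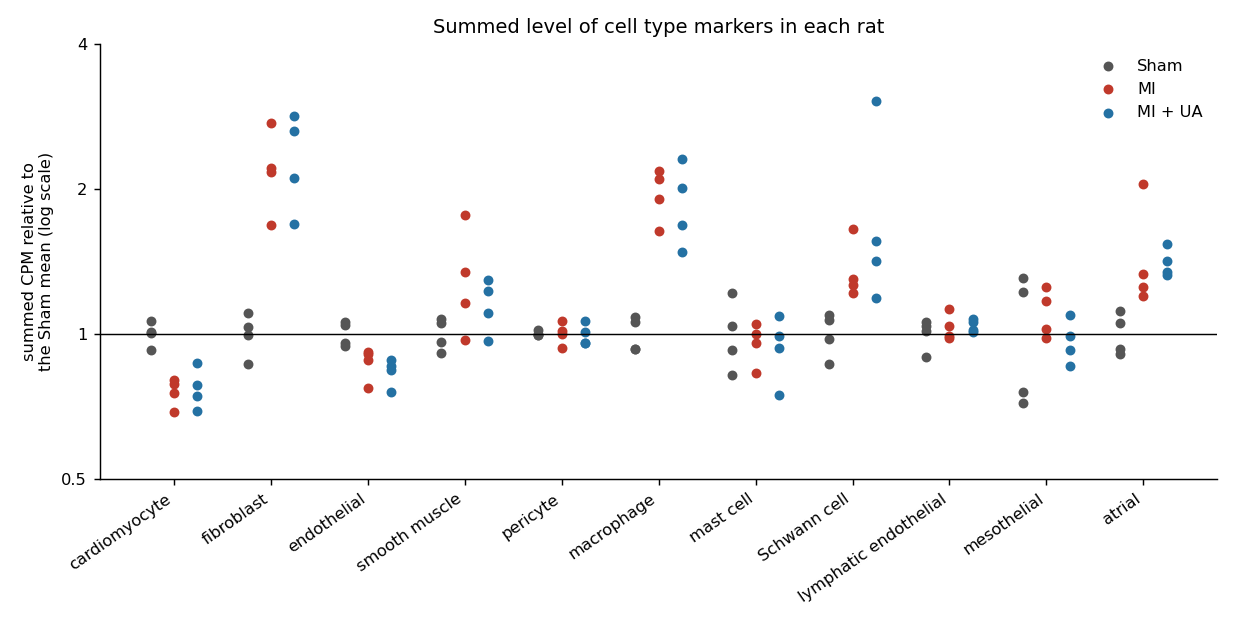
Summed CPM of each marker list in each rat, divided by the mean of the Sham rats and drawn on a log scale, with adipocyte markers left out because their sums were near 0. Fibroblast, macrophage, Schwann cell and atrial sums lay above and cardiomyocyte and endothelial sums below the Sham rats in all 8 infarcted rats.

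Of the 28 pairs among the genes themselves, those with the strongest correlations within groups are given first. Ace and Ece1 varied together between rats of the same group: the Pearson r of log2 CPM over the 12 rats was 0.610, and 0.817 after each group's mean was subtracted. Agt and Ednrb varied in opposite directions, with r = -0.852 and -0.827 after subtraction; MI rat 36 was the highest MI rat in Agt and the lowest of all rats in Ednrb. Agtr1a and Edn1, both higher with MI, had r = 0.620 over all rats and 0.067 after subtraction. These values describe 12 libraries that share their group differences and their scaling, and the counts of Agt are low.

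Over the 10930 genes with a symbol and an average log2 CPM of at least 1, the genes whose pattern over the 12 rats was most like that of Edn1 were Smoc1 (r = 0.951, and 0.865 with group means subtracted), Pcsk5 (0.932 and 0.848) and Ltbp1 (0.931 and 0.802). Those nearest to Agtr1a were Smpd3 (0.958 and 0.928), Adam12 (0.956 and 0.908) and Zfp182 (0.956 and 0.907). Nearest to Ace were Steap3 (0.927 and 0.845), the fibroblast marker Pdgfra (0.920 and 0.846) and C5ar2 (0.913 and 0.868). Nearest to Nr3c2 were Ubox5 (0.944 and 0.898), Myom3 (0.901 and 0.718) and Cd300lg (0.892 and 0.878). Nearest to Ece1 were Heg1 (0.925 and 0.897), the endothelial co-receptor Eng (0.858 and 0.804) and Scamp2 (0.855 and 0.743). For the receptors, the nearest were Rtn3, Hipk1 and Crispld2 to Ednrb (0.891, 0.869 and 0.862) and Myg1, Fgfr3 and Ncoa3 to Ednra (0.871, 0.869 and 0.856). Agt had Mepce, Cdv3 and Dcaf1 (0.896, 0.888 and 0.876), at counts too low for its own pattern to be well measured. The nearest genes were picked from many, so these r values are a description with no test.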

How the data were processed

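Total RNA from heart sections was depleted of ribosomal RNA and sequenced as strand-specific paired reads, 1 library per rat, though the labels give the molecule as polyA RNA. The authors mapped the reads to mRatBN7.2 (Ensembl annotation) with STAR 2.6.1c and deposited raw HTSeq read counts per gene, whose strand setting is not given in the sources used here. The submitters' processing notes also name MultiQC 1.8. The 5 HTSeq summary lines, with reads on no gene or on several, were left out, and between 42.9% and 48.3% of counted reads fell on genes. With such depth, a gene with 10 reads per library is measured coarsely.

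Here, the 18182 genes whose counts summed to 10 or more were compared with edgeR 4.0.16 in R 4.3.3: TMM factors, the 3 groups in 1 quasi-likelihood fit, and Benjamini-Hochberg adjustment over all genes, with a threshold of 0.05. Rats of a group are separate animals. On simulated counts for MI versus Sham, 38% of changes of 0.5, 86% of 1 and 100% of 2 on the log2 scale were recovered, with 16 false calls among 17860 genes. The changes were planted only in genes above a minimum expected count. These rates therefore do not apply to genes with as few reads as Agt. Log2 ratios of counts, with 0.5 added to each, were compared by two-sided exact permutation tests. Alternatives were DESeq2 1.42.0, a fit of only the groups compared, other filters and scalings, rat 66 counted in MI and each rat left out. Leaving out a rat of the group not compared changed a comparison only through the shared fit. The planned ratio of the angiotensin receptors was not analysed here, and some pathway genes and a ratio are not reported here. Promoter sequences are from RefSeq (GRCr8), and no coordinates were moved between builds.

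All genes sought were described. Of the pathway lists, those called in MI versus Sham or MI + UA versus MI and a fixed set of key partners were named. Prkce was named beside the other protein kinase C genes. For likeness, the 3 genes with the highest Pearson r of log2 CPM (1 count added) were named. The genes and lists were chosen with earlier results of these data known.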

Additional observations from a re-analysis of the deposited data

Results flagged for a closer look

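In 1 of 30 groups of 4 rats examined, each gene's level or ratio in 1 group, a rat lay apart from the others: Sham rat 32 had a log2 CPM of Nr3c2 of 5.55, below the 5.73 to 5.76 of the other Sham rats, with a gap of 0.849 of the group's range, above Dixon's 95% critical value. Chance gives such a rat in about 1 in 20 groups.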

How the results depend on the processing

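No paired analysis was possible because each rat was in 1 group and the groups share no replicate numbers. Of 910 recomputed log2 fold changes of the genes named, Prkce not among them, 819 kept their direction and side of the threshold. Another 72 lost a call, 6 gained one and 13 changed sign, none of the last a called difference. The cause was not tested. With rat 66 counted in MI, the differences between MI + UA and MI became 0.16 for Agtr1a, 0.058 for Edn1, 0.085 for Ednra, 0.032 for Nr3c2 and 0.34 for the ratio of Edn1 to Ece1, and that between MI + UA and Sham in the ratio of Ednra to Ednrb became 0.014. Leaving out each rat gave 1 to 6 of the 8 genes called in MI versus Sham and 0 to 3 in MI + UA versus Sham. In MI + UA versus MI it gave 0 to 1 of all genes, and no filter on low counts gave 3 (917 at an unadjusted p under 0.05). In that comparison the differences ranged from -0.25 to 0.24 for Agt, -0.028 to 0.23 for Ace, -0.36 to 0.19 for Agtr1a, -0.78 to -0.17 for Edn1, -0.11 to 0.037 for Ednra, -0.26 to 0.024 for Ednrb, -0.42 to 0.11 for the ratio of Edn1 to Ece1 and -0.15 to 0.24 for that of Ednra to Ednrb. The latter ranged from -0.33 to 0.062 in MI versus Sham and from -0.20 to 0.014 in MI + UA versus Sham, where Ece1 ranged from -0.0092 to 0.11. All genes called numbered 1468 to 2182 in MI versus Sham and 1155 to 1895 in MI + UA versus Sham. Without the filter Ace passed in MI versus Sham (0.0391 adjusted p, edgeR). Few reads limit Agt, Edn1 and Agtr1a, intervals cover the spread between rats only, and a p-value over the threshold does not show that UA left a gene unaltered.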
